A study of Mus musculus with 12 samples.

Results

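The clustered protocadherins are cadherin-family adhesion proteins encoded side by side in the alpha, beta and gamma clusters of mouse chromosome 18. They were selected by gene symbol alone (Pcdha, Pcdhb, Pcdhga, Pcdhgb or Pcdhgc followed by a member number, or Pcdhac), and 58 gene models of the 36047 genes in the deposited transcript table met the rule. They comprised 14 alpha genes (12 alternate genes and the C-type genes *Pcdhac1* and *Pcdhac2*), 22 beta genes and 22 gamma genes (12 of subfamily A, 7 of subfamily B and the C-type genes *Pcdhgc3*, *Pcdhgc4* and *Pcdhgc5*). The models carried 57 symbols, because *Pcdha11* names 2 gene models. These are called *Pcdha11-I* (ENSMUSG00000007440.10, starting at base 37005203) and *Pcdha11-II* (ENSMUSG00000102206.5, starting at base 37010712), and they were kept apart.

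Each alternate gene of the alpha and gamma clusters has its own promoter and a large variable exon that encodes the extracellular and membrane-spanning parts, and this exon is spliced to constant exons shared by the whole cluster, whereas beta genes have no shared constant exons. Single neurons switch on a few alternate promoters by chance, and most neurons also use C-type promoters, so neighbouring neurons carry different sets of proteins on their surface. The proteins bind like to like and let a neuron tell its own branches from those of other cells, which spaces dendrites and axons, and gamma members also keep interneurons alive during development.

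RNAseq libraries were made from the cortex of WT and *Gde2*KO mice at 4 and 19 months of age, with 3 libraries in each of the 4 groups. *Gde2*KO animals carry a germline deletion (*Gde2*-/-) of the gene for GDE2, a membrane enzyme that releases proteins from their glycosylphosphatidylinositol anchors, so every cell of the body lacks it and not neurons alone. The study examined 19-month cortex for splicing and 4-month cortex for earlier changes in pathways. Male and female mice were used, but the strain, the sex of single animals and the deleted exons are not given in the sources used here. The ages are different animals in different libraries so that age and library set cannot be told apart. The p-values set a difference between groups against the spread between these libraries within groups. Levels were read as normalized counts (estimated counts divided by a size factor for the library) for tests, and as TPM, which correct for transcript length, for comparisons between genes.

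The targeted gene is *Gdpd5* (ENSMUSG00000035314.10, chromosome 7, 99381414 to 99461877, GRCm38), which encodes GDE2. It measured 684, 702 and 1199 (mean 862 ± 293) normalized counts in the 4-month WT libraries and 417, 585 and 403 (mean 468 ± 101) in the 4-month *Gde2*KO libraries (SD, n = 3 here and below). At 19 months it measured 1065, 1129 and 952 (mean 1049 ± 89.5) in WT and 441, 456 and 560.1 (mean 486 ± 65.0) in *Gde2*KO. The genotypes did not overlap at either age on this scale, although the 4-month genotypes overlapped in TPM. The log2 difference was −0.85 ± 0.25 (SE) at 4 months, which limma did not call (adjusted p = 0.463), and −1.11 ± 0.12 at 19 months, which it did (adjusted p = 0.0111).

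The libraries held 46434270 to 59728494 estimated reads at 4 months and 3707928 to 44604721 at 19 months, and the shallow ones were WT library A (6734475) and *Gde2*KO library A (3707928) of 19 months. The median member rested on 45.5 estimated reads in *Gde2*KO library A and on 71.0 in WT library A, against 398 to 654 in the other libraries, and 9 and 3 members stood under 20 reads in these libraries. Summed TPM of 8 neuronal markers ran from 5124 to 6516 in all 12 libraries. Summed TPM of 8 hippocampal markers was 234.5 and 219.1 in 4-month WT libraries 1 and 2 against 16.0 to 41.8 in the other 10 libraries, and 7 striatal markers summed to 135.6 and 109.9 there against 658 to 1813 in the other 4-month libraries. At 19 months the striatal sum was 236 to 491 in *Gde2*KO, below all 4-month *Gde2*KO libraries (658 to 1813). Marker genes of deep and upper cortical layers (7 genes) summed to 147.5 and 170.3 TPM in the same WT libraries against 216 to 293.5 elsewhere, although the deep-layer gene *Fezf2* stood higher there (39.5 and 41.7 against 17.8 to 34.3). The part of these regional differences in any result at 4 months or between ages was not tested beyond leaving these libraries out. Values without them are given where they change a call of a member.

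On GRCm38 all members lie on the plus strand. The alpha genes span 36930184 to 37187661, the beta genes 37264938 to 37524479 and the gamma genes 37661793 to 37841873. GENCODE annotates 89 transcripts for them, with 36 gene models at a single transcript. Constant exons of 59, 89 and 2712 bases close the alpha transcripts (37156155 to 37156213, 37159265 to 37159353 and 37184946 to 37187657), and constant exons of 59, 89 and 1971 bases close the gamma transcripts (37825021 to 37825079, 37833265 to 37833353 and 37839903 to 37841873). In the most abundant transcript of each gene, constant exons made up a median of 53.5% of the length among the alpha alternate genes, 44.8% in gamma A and 45.4% in gamma B. A read from a constant exon fits every member of its cluster that carries it, so levels of alpha and gamma members depend on how the estimator divided shared reads, and those of beta members do not in the same way. Some neighbours also overlap on the same strand, namely *Pcdhb21* with *Pcdhb22* (455 bases), *Pcdhgb1* with *Pcdhga4* (1038 bases) and *Pcdhgb4* with *Pcdhga8* (108 bases), and their values are uncertain to that extent.

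The C-type genes *Pcdhgc5*, *Pcdhgc3* and *Pcdhac2* were among the highest members, and the place of *Pcdhgc4* depended on a single transcript. The median member stood at 4.55 TPM, averaged over the 12 libraries, against 11.9 TPM for the 18731 genes that passed the filter on low values over all libraries, and 5 members lay above that median. *Pcdhgc5*, whose protein was found at a subset of synapses, averaged 89.7 TPM, above 89.7% of those genes. *Pcdhgc3*, which takes part in dendrite branching, averaged 36.7. *Pcdhgc4*, the isoform needed for the survival of interneurons, averaged 57.4 TPM, of which 50.7 belonged to *Pcdhgc4-203*, a transcript made almost wholly of constant exons, and 6.17 to *Pcdhgc4-201*, which holds the variable exon. *Pcdhac2*, known for the spacing of serotonergic axons, averaged 23.0, and *Pcdhac1* only 2.62, below the median of the alpha alternate genes. The 4 highest of these genes held 44.0% of the summed TPM of all members. Without 4 alpha and gamma transcripts that hold constant exons and under 500 bases outside them, an alternative chosen after seeing the data, their share was 32.6%, *Pcdhgc5* averaged 60.5 TPM, and *Pcdhgc4* averaged 6.76 with 15 members above it.

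Mean TPM of the 12 alpha alternate genes ran from 0.733 (*Pcdha8*) to 7.79 (*Pcdha12*) with a median of 3.35. The 22 beta genes ran from 0.124 (*Pcdhb1*) to 8.27 (*Pcdhb9*) with a median of 3.51, and after *Pcdhb1* the lowest was *Pcdhb21* at 1.40. Gamma genes were higher, at 3.30 (*Pcdhga1*) to 13.9 (*Pcdhga11*) with a median of 8.18 in subfamily A and at 3.22 (*Pcdhgb4*) to 8.94 (*Pcdhgb6*) with a median of 5.03 in subfamily B. Position in the cluster, counted from the first gene, went with the mean TPM at a Spearman rho of 0.41 over 12 alpha alternate genes and 0.45 over 12 gamma A genes, against −0.08 over 22 beta and 0.07 over 7 gamma B genes. These are correlations across genes that share libraries and, in the alpha and gamma clusters, constant-exon reads, and genes are not independent replicates.

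**Figure D1:**
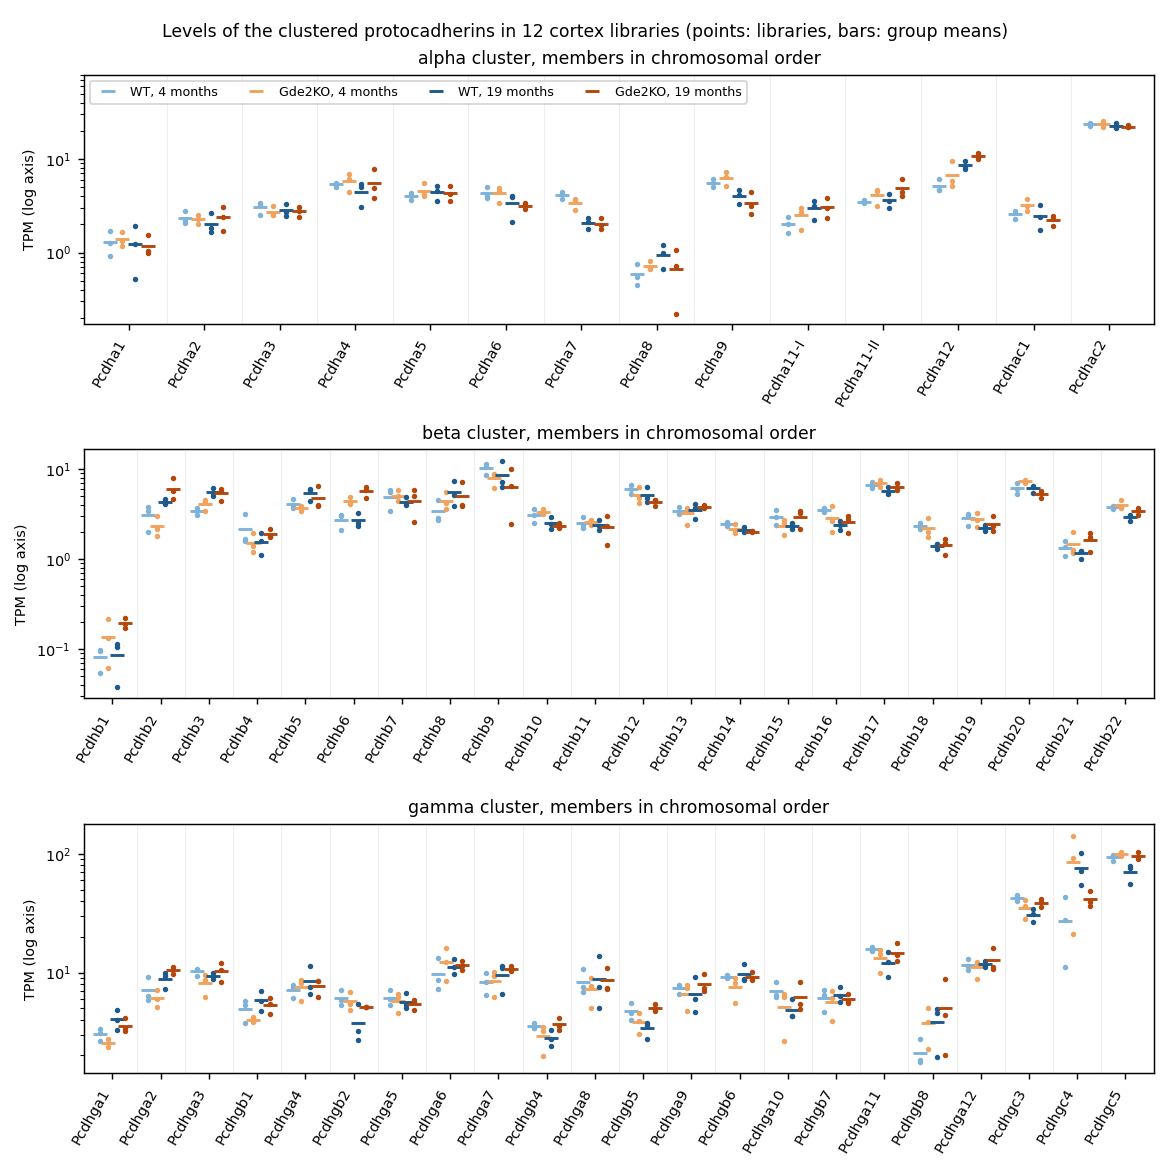
TPM on a log axis of the 58 members in the 12 libraries, in the order in which the genes follow each other in the alpha, beta and gamma clusters, with a point for each library and a short bar for the mean of each group of 3. By their means over all libraries, *Pcdhgc5* (89.7 TPM), *Pcdhgc4* (57.4), *Pcdhgc3* (36.7) and *Pcdhac2* (23.0) stand above all other members, and *Pcdhb1* (0.124) below them, but 50.7 TPM of *Pcdhgc4* belong to a transcript made almost wholly of constant exons.

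The first question was whether loss of GDE2 changed any member at 4 months. No member was called by limma, 0 of the 57 tested, against 0.126% of the 19035 genes tested (24 genes, at an adjusted p under 0.1 and an absolute log2 difference above 0.721). At an unadjusted p under 0.05 stood 2 members, *Pcdhb6* and *Pcdhgb8*, both higher in *Gde2*KO, which is a smaller share than the 10.6% of all genes. *Pcdhb1* failed the filter, with 2.39 to 10.03 normalized counts in the 4-month libraries. The median log2 difference of the members was −0.03 against 0.11 over all genes tested. Genotype values did not overlap, with *Gde2*KO above, for 4 members (*Pcdha11-II*, *Pcdhb6*, *Pcdhb8* and *Pcdhb22*) against 11.1% of all genes, and for 0 members with *Gde2*KO below against 4.26%.

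*Pcdhb6* had the smallest unadjusted p at 4 months. It measured 107, 122 and 93.4 (mean 108 ± 14.5) normalized counts in WT and 167, 160.1 and 223 (mean 183 ± 34.3) in *Gde2*KO. Every *Gde2*KO library lay above every WT library, and the log2 difference was 0.76 ± 0.21 SE, unadjusted p = 0.00637, limma adjusted p = 0.463. *Pcdhgb8*, the only member GENCODE types as a polymorphic pseudogene, measured 147, 154 and 228 (mean 176 ± 44.7) in WT and 438, 190.4 and 344 (mean 324 ± 125) in *Gde2*KO, a log2 difference of 0.82 ± 0.32 SE, unadjusted p = 0.0345, limma adjusted p = 0.463. Its second *Gde2*KO library lay inside the WT range.

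The next members by unadjusted p were a beta, a C-type alpha and an alternate alpha gene. *Pcdhb8* measured 106, 123 and 136 (mean 121 ± 15.3) in WT and 149, 145 and 236 (mean 177 ± 51.2) in *Gde2*KO (log2 difference 0.51 ± 0.24 SE, unadjusted p = 0.0637, limma adjusted p = 0.467). *Pcdhac1* measured 224, 277 and 261 (mean 254 ± 26.8) and 387, 276 and 333 (mean 332 ± 55.9) (0.38 ± 0.18 SE, unadjusted p = 0.0711, limma adjusted p = 0.469), and 1 *Gde2*KO library stood within the WT range. *Pcdha11-II* measured 256, 242 and 277 (mean 258 ± 17.6) and 375, 297 and 304 (mean 326 ± 43.1) (0.33 ± 0.16 SE, unadjusted p = 0.0755, limma adjusted p = 0.471), with no overlap. With 4-month WT libraries 1 and 2 left out, which was chosen after seeing the data, the log2 difference of *Pcdhgb8* was 0.43 in place of 0.82, that of *Pcdhb8* 0.34 in place of 0.51, and no member was called.

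Differences by subfamily at 4 months were small on either side of 0. The median log2 difference was 0.20 among the alpha alternate genes, with 10 of 12 above 0, and 0.01 among the beta genes, with 11 of 21 above 0. It was −0.13 in gamma A, with 3 of 12 above 0, and −0.24 in gamma B, with 1 of 7 above 0. The median of all genes was 0.11, and 0.01 with median-ratio scaling, so these medians are to be read against it. Neither the alpha nor the gamma pattern was tested, because their members share reads.

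**Figure D2:**
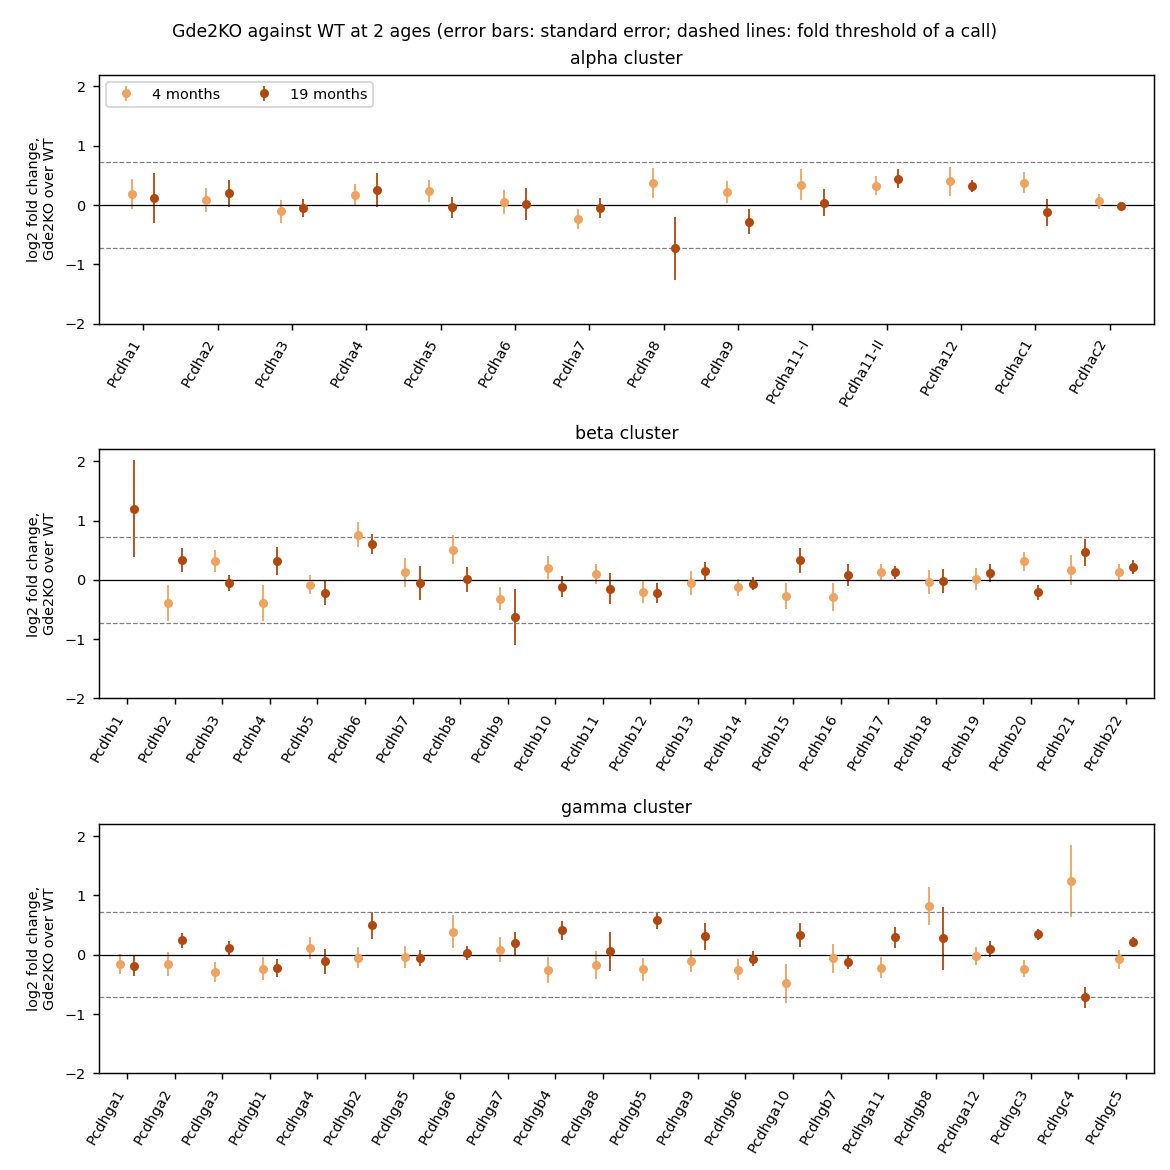
Log2 difference between *Gde2*KO and WT on the y axis for each member in the order of the clusters, at 4 and at 19 months, with bars of 1 SE from limma and dashed lines at the size of 0.721 that a call needs. No member passed the test at either age, and values of both signs occur in each cluster at each age.

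At 19 months again 0 of 58 members were called by limma, against 0.0969% of the 18583 genes tested (18 genes). An unadjusted p under 0.05 was reached by 8 members, 7 of them higher in *Gde2*KO, against 6.91% of all genes. Of these 8, 2 were gamma B genes and 3 gamma C-type genes, which share constant-exon reads, so their differences are not independent of each other. An alternative chosen after seeing the data left out the 4 transcripts with under 500 bases outside the constant exons. There 7 members reached that p, all 7 higher in *Gde2*KO, against 1285 of 18583 genes. The median log2 difference of the members was 0.07 against −0.02 over all genes. Values did not overlap with *Gde2*KO above for 8 members (*Pcdha11-II*, *Pcdha12*, *Pcdhb1*, *Pcdhb6*, *Pcdhgb4*, *Pcdhgb5*, *Pcdhgc3* and *Pcdhgc5*) against 5.85% of all genes, and with *Gde2*KO below for *Pcdhgc4* alone against 8.32%. Without both shallow libraries, 7 members stood under an unadjusted p of 0.05, 3 of them higher, and 0 were called. Of all genes, 1120 of 18742 stood under that p with those libraries left out.

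*Pcdhgb5*, a gamma alternate gene, had the smallest unadjusted p at 19 months. It measured 236, 326 and 307 (mean 289.6 ± 47.4) normalized counts in WT and 420.5, 463 and 408 (mean 430.2 ± 28.8) in *Gde2*KO, with no overlap and a log2 difference of 0.58 ± 0.14 SE, unadjusted p = 0.00308, limma adjusted p = 0.504. At 4 months it had gone the other way, with 336, 469 and 384 (mean 397 ± 67.4) in WT and 397, 332 and 276 (mean 335 ± 60.7) in *Gde2*KO, and there the genotypes overlapped. *Pcdhgc3* measured 2266, 2666 and 2897 (mean 2609 ± 319) in WT and 3459, 3378 and 3073 (mean 3303 ± 204) in *Gde2*KO at 19 months (0.35 ± 0.09 SE, unadjusted p = 0.00555, limma adjusted p = 0.582). The WT library with the lowest value was the shallow library A, and without both shallow libraries the log2 difference of *Pcdhgc3* was 0.21 in place of 0.35.

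*Pcdhb6* was again higher in *Gde2*KO, at 154, 141 and 129 (mean 141 ± 12.4) in WT and 224, 245 and 180.1 (mean 216 ± 33.1) in *Gde2*KO (0.61 ± 0.17 SE, unadjusted p = 0.00595, limma adjusted p = 0.582). The genotypes did not overlap, and the log2 difference without both shallow libraries was 0.64. *Pcdha12*, the highest alpha alternate gene, measured 766, 955 and 808 (mean 843 ± 98.9) in WT and 1109, 1042 and 992 (mean 1047 ± 58.8) in *Gde2*KO (0.32 ± 0.10 SE, unadjusted p = 0.0113, limma adjusted p = 0.620). *Pcdha11-II*, outside the naming rule at this age but without overlap at either, measured 241, 298 and 341 (mean 293 ± 50.04) and 452, 395 and 343 (mean 397 ± 54.8) (0.44 ± 0.16 SE, unadjusted p = 0.0240, limma adjusted p = 0.685).

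On normalized counts, *Pcdhb6* and *Pcdha11-II* were the members with *Gde2*KO above WT without overlap at both ages, 2 of 57 members against 0.388% of the 18040 genes tested at both, and 0 members lay below at both against 0.227%. Neither was called at either age, and in TPM *Pcdha11-II* overlapped at both ages while *Pcdhb6* did not overlap at either. Both ages gave the same sign for 28 of 57 members (16 higher and 12 lower in *Gde2*KO), and across genes the log2 differences at the 2 ages had a Pearson r of −0.21 and a Spearman rho of −0.15, a description over genes that share libraries within an age.

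**Figure D3:**
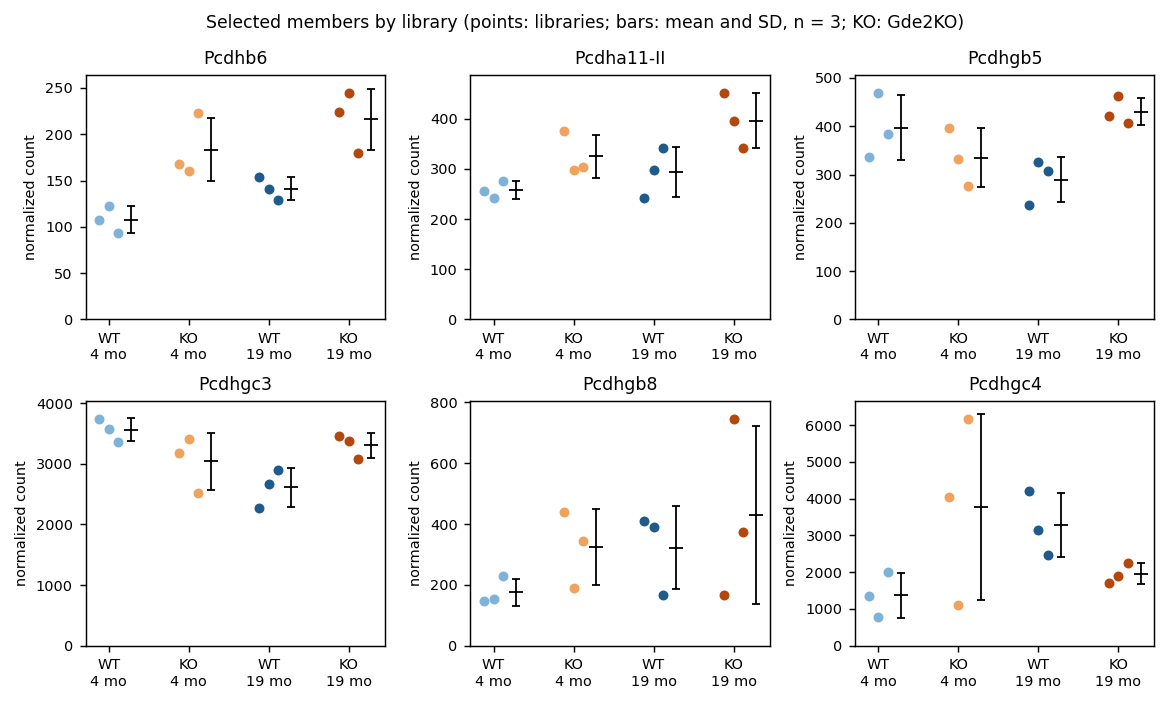
Normalized counts of 6 members (*Pcdhb6*, *Pcdha11-II*, *Pcdhgb5*, *Pcdhgc3*, *Pcdhgb8* and *Pcdhgc4*) by genotype and age, with a point for each library and the mean and SD of each group of 3 beside them. *Pcdhb6* and *Pcdha11-II* lie higher in *Gde2*KO than in WT at both ages without overlap, while *Pcdhgb8* and *Pcdhgc4* spread widely within groups.

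Whether the genotype effect differed between ages was tested directly by the interaction of genotype and age. No member was called by limma, 0 of 58, against 0.048% of the 18731 genes tested (9 genes), and 5 members stood at an unadjusted p under 0.05 against 12.9% of all genes. The smallest unadjusted p were those of *Pcdhgc3* (difference of log2 differences 0.58 ± 0.18 SE, unadjusted p = 0.00609, limma adjusted p = 0.368) and *Pcdhgb5* (0.83 ± 0.25 SE, unadjusted p = 0.00619, limma adjusted p = 0.368), followed by *Pcdhgc4* (−1.96 ± 0.72 SE, unadjusted p = 0.0186, limma adjusted p = 0.368). The spread of *Pcdhgc4* between libraries lay in a single transcript made almost wholly of constant exons, as given below. Its estimate therefore cannot be read as a change of the transcript with the variable exon. An alternative chosen after seeing the data left out the 4 transcripts with under 500 bases outside the constant exons. There 4 members stood under an unadjusted p of 0.05 in place of 5. Without 4-month WT library 3, 4 members passed (*Pcdhgc3*, *Pcdhgb5*, *Pcdhgc4* and *Pcdhb20*), 6.90% of the members against 11.0% of all genes (2029). That library is the 4-month WT library without raised hippocampal markers.

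The constitutive C-type genes were examined one by one. *Pcdhac2* was the steadiest member at 19 months, at 2641, 2579 and 2424 (mean 2548 ± 112) and 2884, 2387 and 2738 (mean 2669 ± 256) normalized counts in WT and *Gde2*KO at 4 months and 2427, 2338 and 2637 (mean 2467 ± 154) and 2471, 2389.6 and 2419.6 (mean 2427 ± 41.2) at 19 months. Its log2 difference between genotypes was 0.06 ± 0.12 at 4 months and −0.02 ± 0.06 at 19 months, both smaller than their SE. *Pcdhac1* at 19 months measured 173, 244 and 328 (mean 248 ± 77.6) in WT and 187, 246 and 230.0 (mean 221 ± 30.5) in *Gde2*KO, where the *Gde2*KO values lay inside the WT range, so that the higher 4-month mean did not recur.

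*Pcdhgc3* at 4 months measured 3737, 3573 and 3362 (mean 3557 ± 188) in WT and 3182, 3414 and 2519 (mean 3038 ± 465) in *Gde2*KO, with overlap. *Pcdhgc5* measured 5903, 5519 and 5931 (mean 5784 ± 231) in WT and 6456, 5807 and 4361 (mean 5541 ± 1072) in *Gde2*KO at 4 months, also with overlap. At 19 months it measured 4226, 5212 and 5254 (mean 4898 ± 582) in WT and 5755, 5607 and 5543 (mean 5635 ± 109) in *Gde2*KO (0.21 ± 0.08 SE, unadjusted p = 0.0353, limma adjusted p = 0.711), where all *Gde2*KO libraries stood above all WT libraries.

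*Pcdhgc4* was the most variable member at 4 months, with a within-group SD of 1.03 on the log2 scale against a median of 0.24 over the members. It measured 1357, 775 and 1995 (mean 1376 ± 610.4) in WT and 4036, 1112 and 6169 (mean 3772 ± 2539) in *Gde2*KO at 4 months (1.24 ± 0.61 SE, unadjusted p = 0.0758, limma adjusted p = 0.472). At 19 months it measured 4205, 3136 and 2481 (mean 3274 ± 870.3) in WT and 1710.3, 1909 and 2259 (mean 1959 ± 278) in *Gde2*KO (−0.72 ± 0.18 SE, unadjusted p = 0.00350, limma adjusted p = 0.513). The direction thus differed between ages, and the genotypes overlapped at 4 months and not at 19.

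This spread lay in a single transcript. *Pcdhgc4-201*, the transcript with the whole variable exon, measured 474, 586 and 585 in WT and 642, 499 and 539.9 in *Gde2*KO at 4 months, and 472, 616 and 635 and 559.8, 617 and 649 at 19 months. All of these fall between 472 and 649. *Pcdhgc4-203* is 2272 bases long, of which 2119 (93.3%) are constant exons and 153 are its own, and it ran from 163 to 5608. Its values were 847, 163 and 1365 in WT and 3337, 587 and 5608 in *Gde2*KO at 4 months, and 3733, 2481 and 1803 and 1112, 1255 and 1594 at 19 months. It was one of the 4 transcripts with constant exons and under 500 bases outside them. Without these 4, an alternative chosen after seeing the data, the 19-month genotype difference of *Pcdhgc4* was 0.10 on the log2 scale (limma adjusted p = 0.842) in place of −0.72. At 4 months the values of *Pcdhgc4-201* overlapped between the genotypes. The 4-month difference of 1.24 is thus not a difference of that transcript. Which gamma gene the reads of the constant exons came from cannot be told apart in these tables.

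**Figure D4:**
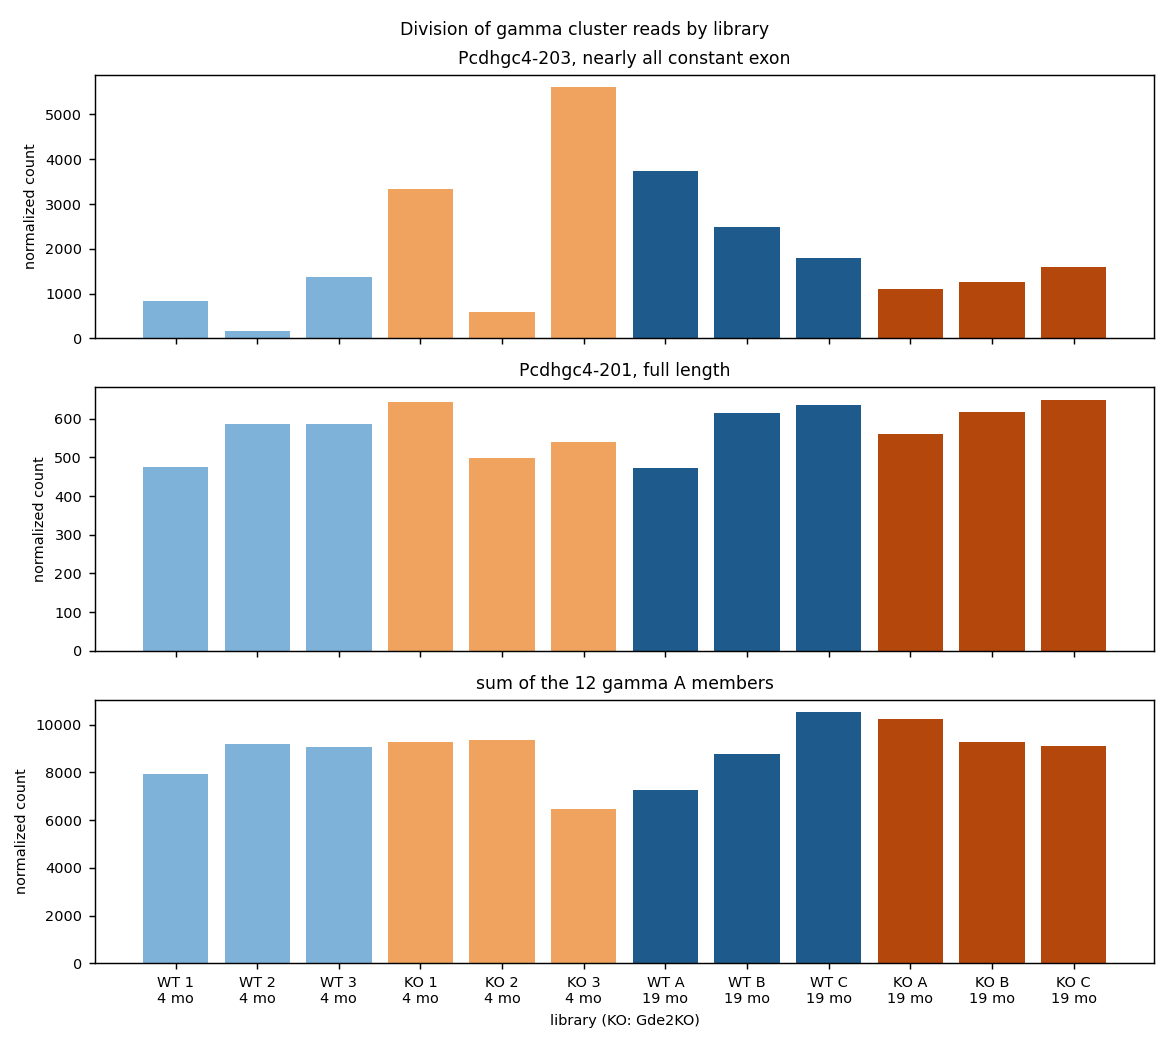
Normalized counts in each of the 12 libraries of *Pcdhgc4-203*, made almost wholly of constant exons (top), of *Pcdhgc4-201* with the full variable exon (middle) and of the sum of the 12 gamma A genes (bottom). *Pcdhgc4-203* runs from 163 to 5608, while *Pcdhgc4-201* stays between 472 and 649 and the gamma A sum between 6485 and 10521.

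Among members with more than 1 transcript, usage could be tested for 18 at 4 months and 16 at 19 months. At 4 months 0 of 18 were called by limma's diffSplice, against 0.997% of the 12235 genes tested, and 1 reached an unadjusted p under 0.05 against 12.6%. This was *Pcdha2* (limma adjusted p = 0.261). Its transcript *Pcdha2-201* held a mean share of 47.5% of the gene's TPM in WT and 84.9% in *Gde2*KO. *Pcdha2-202* measured 101, 99.0 and 108 normalized counts in WT and 0.684, 75.6 and 0 in *Gde2*KO, so that 1 *Gde2*KO library resembled WT and the other 2 were at or near 0. *Pcdha2-201* and *Pcdha2-202* hold 2501 and 2482 bases outside the constant exons, and 2860 and 2163 bases of constant exon. Reads of constant exons, which fit other alpha members too, thus enter this share, and their part was not tested. At 19 months 0 of 16 were called against 0.171% of the 12253 genes tested, and 2 reached an unadjusted p under 0.05 (*Pcdhgb4* and *Pcdhgb1*) against 5.1%. In simulated data the usage test recovered 75% of transcripts changed 3-fold at 4 months and 7% at 19 months. At 19 months a usage change of that size would thus mostly have been missed. The changed transcripts were drawn from well-expressed ones only, whereas the real test admitted transcripts from a mean of 5. All simulated transcripts also had a fixed degree of variation, so the 75% need not hold for the real test, which may recover fewer.

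Summed over each cluster, the group means of *Gde2*KO and WT differed by less than the larger SD of the pair at both ages, as did those of 19 and 4 months. The alpha sum was 6651 ± 161 normalized counts in WT and 7375 ± 868 in *Gde2*KO at 4 months, and 6587 ± 589 and 6820 ± 352 at 19 months. The beta sum was 5731 ± 341 and 5839 ± 258 at 4 months, and 5438 ± 291 and 5533 ± 367 at 19 months. The gamma sum was 22515 ± 916 and 23624 ± 2222 at 4 months, and 22685 ± 1951 and 23769 ± 639 at 19 months. The log2 ratios of *Gde2*KO to WT for alpha, beta and gamma were 0.15, 0.03 and 0.07 at 4 months. At 19 months they were 0.05, 0.02 and 0.07, and in each of these comparisons the groups overlapped. The deposited scaling left 4-month *Gde2*KO library 3 with a total of 4.12e+07 normalized counts, against 3.19e+07 to 3.59e+07 in the other 4-month libraries. With median-ratio scaling the alpha ratio at 4 months was 0.03, and over all alternatives it ran from 0.01 to 0.24. A sum over bulk tissue cannot tell fewer expressing cells from less RNA in each cell.

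C-type genes held 33.6% to 39.7% of the TPM of the alpha cluster in all libraries. Their share of alpha TPM was 38.8% ± 0.82 in WT and 37.6% ± 1.54 in *Gde2*KO at 4 months. At 19 months it was 39.1%, 37.7% and 37.7% in WT and 33.6%, 36.6% and 37.3% in *Gde2*KO, lower in *Gde2*KO without overlap, and the lowest value was that of the shallow library A. Of gamma TPM, C-type genes held 54.0% ± 4.12 and 62.6% ± 10.4 in WT and *Gde2*KO at 4 months and 56.4% ± 5.52 and 54.1% ± 1.49 at 19 months, with overlap. Without the 4 transcripts with under 500 bases outside the constant exons, the gamma shares became 45.3% and 44.2% at 4 months and 40.3% and 42.1% at 19 months. On that scale the genotypes overlapped at each age, but the ages did not. The share was 43.5% to 48.1% in WT and 43.4% to 44.8% in *Gde2*KO at 4 months. At 19 months it was 38.4% to 41.8% and 41.5% to 42.6%. The summed TPM of gamma C-type genes was then 92.3 in WT and 109 in *Gde2*KO at 19 months, without overlap. In WT at 4 months it was 114, also without overlap with 19 months.

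The second question was how the members differed between 19 and 4 months. In WT, limma called 5 of 58 members, against 13.7% of the 18731 genes tested. *Pcdha12*, *Pcdhb3*, *Pcdhb8* and *Pcdhgc4* rose, against 6.29% of all genes called higher, and *Pcdha7* fell, against 7.4% called lower. In *Gde2*KO, 4 of 58 members were called against 11.9% of all genes, in a comparison in which the striatal markers also differed between the ages without overlap, and their part was not tested. *Pcdhb2* and *Pcdhga2* rose, against 2.55% called higher, and *Pcdha7* and *Pcdha9* fell, against 9.32% called lower. *Pcdha7* was called in both genotypes, 20% of the members called in WT and 25% of those called in *Gde2*KO. The same overlap over all genes was not counted, so these shares have no background to be read against. The median log2 difference was −0.09 over the members and −0.07 over all genes in WT, and 0.05 and −0.21 in *Gde2*KO, where other scalings brought the median of all genes to −0.04 or 0.00.

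*Pcdha7*, an alpha alternate gene, was lower at 19 months in both genotypes. It measured 407, 434 and 363 (mean 401 ± 35.6) normalized counts at 4 months and 177, 233 and 208 (mean 206 ± 28.4) at 19 months in WT, and 286, 352 and 394 (mean 344 ± 54.4) and 173, 233 and 194 (mean 200.1 ± 30.4) in *Gde2*KO. The ages did not overlap in either genotype, and the log2 differences were −0.96 ± 0.17 (limma adjusted p = 0.00409) in WT and −0.78 ± 0.17 (adjusted p = 0.0124) in *Gde2*KO. The call in *Gde2*KO was lost on the limit of size, with adjusted p still under 0.1, with median-ratio scaling (−0.61), equal totals (−0.57), array weights (−0.48), without both shallow libraries or 19-month *Gde2*KO library A alone (−0.68 each) and without 4-month *Gde2*KO library 3 (−0.67). *Pcdha9*, its neighbour but one, measured 658, 499 and 760.3 (mean 639 ± 132) at 4 months and 247, 313 and 438 (mean 333 ± 97.1) at 19 months in *Gde2*KO (−0.96 ± 0.22, adjusted p = 0.0137). In WT it measured 542, 601 and 486 (mean 543 ± 57.7) and 406, 331 and 456 (mean 398 ± 63.0), without overlap but also without a call.

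At the other end of the alternate genes, *Pcdha12* measured 459, 459.8 and 597 (mean 505 ± 79.5) in WT at 4 months and, as given above, 766 to 955 at 19 months (0.74 ± 0.20, limma adjusted p = 0.0258). In *Gde2*KO it measured 955, 505 and 599.5 (mean 686 ± 237) at 4 months and 992 to 1109 at 19 months, without overlap. That difference was called with median-ratio scaling, with equal totals or without 4-month *Gde2*KO library 1. It was not called with the deposited scaling and all libraries.

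Beta genes were among those that rose. *Pcdhb3* measured 208, 249 and 229 (mean 229 ± 20.4) at 4 months and 419, 347 and 369.8 (mean 379 ± 36.9) at 19 months in WT (0.73 ± 0.16, limma adjusted p = 0.0121). *Pcdhb8* rose in WT from 121 to 261, 158 and 240.1 (mean 219.8 ± 54.2) (0.83 ± 0.24, adjusted p = 0.0328). *Pcdhb2* measured 142.9, 95.5 and 95.3 (mean 111 ± 27.4) at 4 months and 274, 353 and 198 (mean 275 ± 77.3) at 19 months in *Gde2*KO (1.29 ± 0.27, adjusted p = 0.0113). Its WT values of 167, 183 and 96.1 (mean 149 ± 46.1) and 228, 205 and 205 (mean 213 ± 13.2) did not overlap either. *Pcdhb20* in *Gde2*KO measured 502, 439 and 499 (mean 479.7 ± 35.7) and 299, 368 and 346 (mean 337 ± 35.4) and passed the adjusted p (0.0270) but not the limit on size (−0.51 ± 0.14).

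In the gamma cluster, *Pcdhga2* rose in *Gde2*KO from 530.5, 602 and 469 (mean 534 ± 66.7) to 812, 965 and 908 (mean 895 ± 77.3) (0.75 ± 0.18, limma adjusted p = 0.0162), without overlap. Its WT values of 499.9, 774 and 535 (mean 603 ± 149) and 625, 856 and 805 (mean 762 ± 122) overlapped. *Pcdhgc3* was lower at 19 months in WT, without overlap (−0.45 ± 0.12, adjusted p = 0.0272), but short of the limit on size. The rise of *Pcdhgc4* in WT (1.32 ± 0.51, adjusted p = 0.0891) was 0.03 without the 4 transcripts with under 500 bases outside the constant exons (adjusted p = 0.911).

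Without 4-month WT libraries 1 and 2, whose hippocampal markers were raised, 0 of the 5 members were called in WT, and the calls over all genes went from 2565 to 517. The log2 differences without them were −0.82 for *Pcdha7*, 0.72 for *Pcdhb3*, 0.49 for *Pcdha12*, 0.66 for *Pcdhb8* and 0.68 for *Pcdhgc4*, each in the same direction as with all libraries. That fit keeps 1 WT library at 4 months, so the lost calls do not show that the differences came from the libraries left out, and *Pcdha7* was called when either was left out alone. Without both shallow libraries 3 members were called in WT (*Pcdha7* and *Pcdha12* of the 5, and *Pcdhb18*), and 4 in *Gde2*KO (*Pcdhb2*, *Pcdhga2* and *Pcdha9* of the 4, and *Pcdhb9*). With those libraries left out, 2440 of 18817 genes were called in WT and 2409 in *Gde2*KO.

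Counting separation of the ages in place of test calls, 7 members lay higher at 19 months in WT without overlap, against 19.3% of all genes, and 12 lay lower, against 26.7%. In *Gde2*KO 7 lay higher, against 11.3%, and 9 lower, against 29.9%. In both genotypes 3 members lay higher without overlap (*Pcdha12*, *Pcdhb2* and *Pcdhga1*), against 6.73% of all genes, and 5 lay lower (*Pcdha7*, *Pcdha9*, *Pcdhb14*, *Pcdhb18* and *Pcdhb22*), against 16.6%. The age difference had the same sign in both genotypes for 40 of 58 members (18 higher and 22 lower), with a Pearson r of 0.38 and a Spearman rho of 0.40 across genes, a description over members that share libraries within a genotype.

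**Figure D5:**
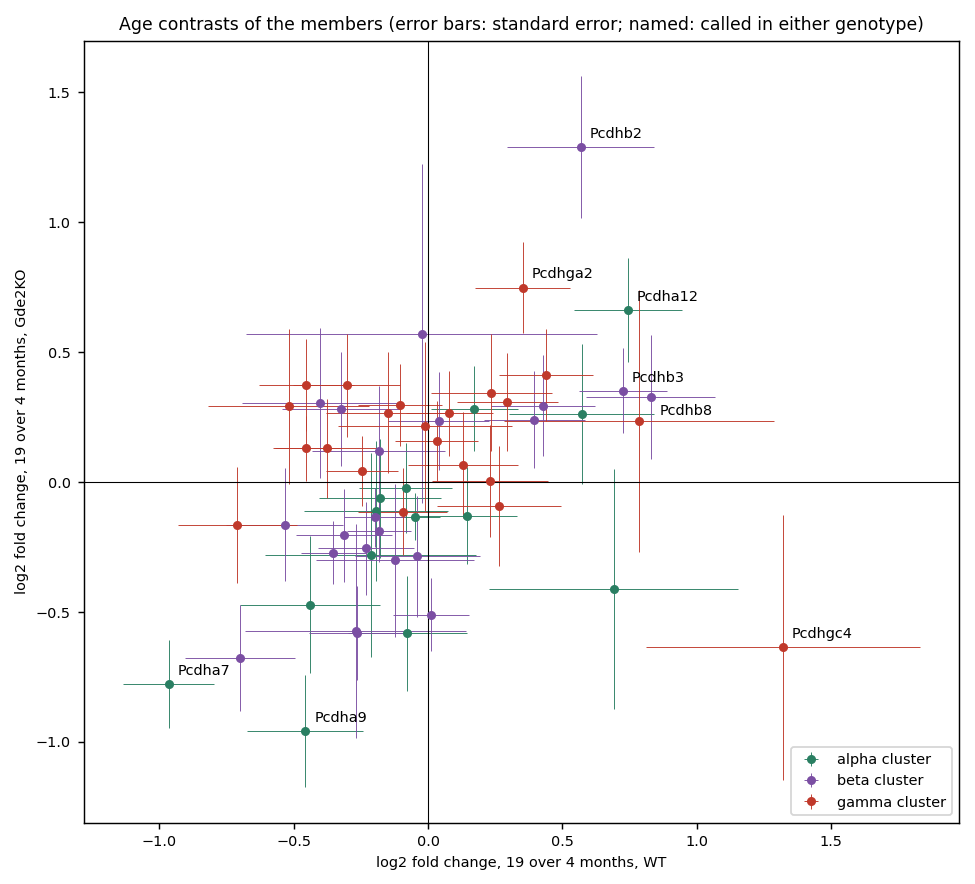
Log2 difference between 19 and 4 months for each of the 58 members in WT (x axis) and in *Gde2*KO (y axis), coloured by cluster, with bars of 1 SE from limma and with names for the members called in either genotype. *Pcdha7* lies low on both axes (−0.96 in WT and −0.78 in *Gde2*KO), *Pcdhb2* is highest in *Gde2*KO (1.29) and *Pcdhgc4* highest in WT (1.32).

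*Pcdha8*, the lowest alpha alternate gene, measured 53.9, 44.3 and 73.8 (mean 57.4 ± 15.0) and 81.8, 68.3 and 69.1 (mean 73.1 ± 7.59) in WT and *Gde2*KO at 4 months and 118, 65.9 and 96.8 (mean 93.5 ± 26.1) and 104, 71.0 and 21.9 (mean 65.6 ± 41.3) at 19 months. *Pcdhb9*, the highest beta gene, measured 612, 557 and 462 (mean 544 ± 75.9) and 342, 475 and 498 (mean 438 ± 83.9) at 4 months and 343, 391 and 671 (mean 468 ± 177) and 531, 131 and 352 (mean 338 ± 200.1) at 19 months. Genotypes and ages overlapped for both genes.

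*Pcdhb1* was near the limit of detection. It measured 4.33, 4.23 and 2.39 and 10.03, 2.75 and 6.21 normalized counts in WT and *Gde2*KO at 4 months, and 4.66, 1.69 and 5.05 and 8.29, 9.83 and 7.80 at 19 months. In the shallow *Gde2*KO library A its value equals that of 1 estimated read, so the separation of the genotypes at 19 months rests on single reads there.

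In gamma A, *Pcdhga11* measured 1304, 1414 and 1325 (mean 1348 ± 58.8) and 1399, 1227 and 907 (mean 1178 ± 249.9) in WT and *Gde2*KO at 4 months and 803, 1074 and 1293 (mean 1057 ± 246) and 1503, 1091 and 1244 (mean 1279.7 ± 208) at 19 months, and *Pcdhga1* measured 222, 276 and 253 (mean 250.5 ± 27.3) and 207, 215 and 249 (mean 224 ± 22.4) and then 335, 279 and 415 (mean 343 ± 68.4) and 268, 357 and 274 (mean 299.6 ± 49.6). In gamma B, *Pcdhgb6* measured 772, 767 and 807 (mean 782 ± 21.7) and 725, 769 and 506 (mean 667 ± 141) at 4 months and 751, 743 and 1008 (mean 834 ± 151) and 854, 738 and 776 (mean 789.6 ± 59.0) at 19 months, and *Pcdhgb4* measured 271, 300.0 and 271 (mean 281 ± 16.6) and 294, 255 and 170.5 (mean 239.6 ± 63.0) and then 194, 223 and 270.1 (mean 229 ± 38.2) and 341, 274 and 297 (mean 304 ± 33.8). *Pcdhga1* was higher at 19 months in both genotypes without overlap, and *Pcdhgb4* was higher in *Gde2*KO at 19 months without overlap, but neither was called.

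The spread of the members between libraries was close to that of other genes at 4 months and wider than theirs at 19 months. The members' own median changed little between ages, and that of all genes was lower at 19 months. The median member stood at 4.55 TPM against 11.9 over all genes, and members rested on few reads in the shallow 19-month libraries. The part of level and depth in this spread was not tested. The median within-group SD on the log2 scale was 0.24 over 57 members and 0.27 over all genes at 4 months, and 0.25 over 58 members and 0.17 over all genes at 19 months. The widest at 19 months was *Pcdhgb8* (0.92), at 410.2, 390.4 and 165 (mean 322 ± 136) in WT and 167, 745 and 375 (mean 429 ± 293) in *Gde2*KO, and the narrowest was *Pcdhac2* (0.07).

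Genes that act with or on the clustered protocadherins were counted from further lists. Counts at an unadjusted p under 0.05 between genotypes are to be read against 10.6% of all genes at 4 months and 6.91% at 19 months. Age calls, here and below, are to be read against 6.29% of all genes called higher and 7.4% lower in WT. In *Gde2*KO these shares were 2.55% and 9.32%. The WT age calls use 4-month libraries 1 and 2, with raised hippocampal markers, and their part in the calls of these lists was not tested. No gene of the chromatin-architecture list (11 genes, with CTCF and cohesin, which loop enhancers to protocadherin promoters) was called by limma in either genotype comparison or between ages. Between genotypes, 0 of them at 4 months and 2 at 19 months stood at an unadjusted p under 0.05. The list of silencing and methylation genes (14) had 0 calls and 0 genes at an unadjusted p under 0.05 between genotypes, and *Tet1*, a methylcytosine dioxygenase, fell with age in WT (−0.73 ± 0.23, adjusted p = 0.0483). Binding partners and signalling genes (18) had 0 calls between genotypes, with 2 at an unadjusted p under 0.05 at each age. The neuroligin *Nlgn1* fell with age in WT (−0.73 ± 0.11), and *Marcks*, a membrane-bound substrate of protein kinase C, fell in *Gde2*KO (−0.88 ± 0.15).

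The enzymes that shed protocadherins from the membrane (7) and the genes next to the locus (10) had 0 calls and 0 genes at an unadjusted p under 0.05 between genotypes at either age. With age, the gamma-secretase subunits *Aph1b* in WT (−0.74 ± 0.17) and *Psenen* in *Gde2*KO (−0.84 ± 0.22) fell. *Taf7*, a subunit of the general transcription factor TFIID that lies between the beta and gamma clusters, fell in *Gde2*KO (−0.88 ± 0.21).

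Other cadherins likewise gave 0 calls by limma between genotypes at both ages. Of the non-clustered protocadherins (12), 5 stood at an unadjusted p under 0.05 at 4 months and 5 at 19 months, against 10.6% and 6.91% of all genes. The median log2 difference of the 12 went opposite ways, at −0.15 at 4 months and 0.21 at 19 months. Over all genes it was 0.11 and −0.02. With age, 4 of them fell in WT (*Pcdh8*, *Pcdh17*, *Pcdh19* and *Pcdh20*) and 1 in *Gde2*KO (*Pcdh11x*). *Pcdh20* fell by 2.60 on the log2 scale in WT, where it stood at 47.3, 48.8 and 6.5 TPM in 4-month libraries 1, 2 and 3, high in the libraries with raised hippocampal markers. Of the atypical cadherins (9), *Dchs2* and *Fat4* fell in WT and *Dchs2* in *Gde2*KO. Of the classical cadherins (10), *Cdh8*, *Cdh9* and *Cdh11* fell and *Cdh6* rose in WT, and *Cdh4* and *Cdh9* fell in *Gde2*KO. In 4-month WT libraries 1, 2 and 3, *Cdh6* stood at 2.40, 3.60 and 8.84 TPM, *Cdh8* at 35.6, 38.1 and 20.5 and *Cdh11* at 36.3, 35.9 and 19.7, so the libraries with raised hippocampal markers also stood apart for these genes. At an unadjusted p under 0.05 between genotypes stood 2 atypical and 3 classical cadherins at 4 months, and 3 and 2 at 19 months.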

How the data were processed

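The members and gene lists were chosen with earlier results of these data known. RNAseq libraries were prepared by the authors from polyA RNA of dissected cortex. The submitters' processing notes name bcl2fastq 2.17, Trimmomatic 0.36, STAR 2.5.2b, kallisto, sleuth and GRCm38, and Kallisto with Sleuth made the tables used here. The authors deposited 2 tables of signal values per transcript, estimated counts divided by a size factor of the library (normalized counts) and TPM divided likewise. Both were summed over 118489 transcripts, of which 1673 without a gene (0.541% to 0.605% of a library's total) were left out. Columns of 19-month libraries are numbered by no label, and the letters A, B and C serve as their names. No column was without a group (0). The commonest low value of a library was taken as 1 estimated read (0.597 to 8.29 normalized counts), but 46.7% to 62.9% of gene values were whole within 0.01 reads, so no count model was used.

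Genes with 5 normalized counts or more in at least 47% of the libraries fitted were tested on log2(normalized count + 0.5) with limma 3.58.1 (intensity trend) in R 4.3.3, within each age for genotype and over all 12 libraries for the interaction and the ages. Differences are on that scale. P-values were adjusted by Benjamini-Hochberg over all genes tested. Calls needed an adjusted p under 0.1 and an absolute log2 difference above 0.721 (natural log 0.5), the interaction only the former. Transcript usage was tested with diffSplice on transcripts with a mean of 5 or more, and calls needed a change of 10 percentage points in TPM share. Tables were handled with Python 3.11.15, pandas 2.3.3 and numpy 2.4.6. Sums and shares got no test. Named members are the C-type genes, the highest and lowest alternate gene of each subfamily, called members of a genotype comparison and the 5 of smallest unadjusted p in each comparison, and others are named in counts. Transcript positions came from GENCODE on GRCm38. Simulated data held 200 changed genes. Of genes changed 2-fold, 92% and 85% were recovered in the genotype tests at 4 and 19 months and 67% in the interaction. The age tests recovered 84% in WT and 90% in *Gde2*KO. Changed genes were drawn from well-expressed ones only. All genes were simulated with a fixed degree of variation and without regional differences between libraries. These shares therefore need not hold for the real tests, which may recover fewer. Alternatives covered pseudocount, filter, scaling, variance model, TPM, single libraries left out and, chosen after seeing the data, 2 exclusions. No nucleotide or protein sequence is printed.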

Additional observations from a re-analysis of the deposited data

How the results depend on the processing

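Of the values that answer a comparison, 284 of the alternative settings left the result where it was and 27 moved it, and of those for single genes 482 did, 47 lost the call, 2 gained it and 1 reversed. The reversal was *Pcdhgc4* at 19 months, 0.10 without the transcripts of constant exons, chosen after seeing the data. With array weights, whose estimate did not converge except in the genotype comparison at 19 months, 5 members were called between genotypes at 4 months (8.77% against 15.4% of all genes) and 23 for the interaction (39.7% against 46.7%). The interaction count ran from 0 to 4 with single libraries left out, and the cause was not tested. Calls between genotypes stayed at 0 under every other alternative run at both ages. In WT, 3 members were called between ages with the TPM table, 3 without both shallow libraries and 0 without 4-month WT libraries 1 and 2 (chosen after seeing the data, with 1 WT library left and 517 calls over all genes in place of 2565), and 2 to 5 with single libraries left out (2 without 4-month WT library 1, 3 without 19-month WT library A). Calls over all genes in WT were 2350 with the TPM table and 2440 without both shallow libraries. They were 1569 without 4-month WT library 1 and 1830 without 19-month WT library A. The count in *Gde2*KO ran from 3 to 6. It was lowest without 4-month *Gde2*KO library 3 (1096 calls over all genes) and highest without 4-month *Gde2*KO library 1 (1999). In *Gde2*KO its split was 2 higher and 2 lower, and 3 higher and 1 lower with median-ratio scaling. Usage calls at 4 months ran from 0 to 2 of 18 members, reaching 2 (*Pcdha2* and *Pcdha4*) without 4-month *Gde2*KO library 2. With that library left out, 659 of 12244 genes were called, against 122 of 12235 with all libraries. Over all genes, 24 calls at 4 months became 1510 without WT library 3 and 2934 with array weights, and the split between ages in *Gde2*KO, 478 higher and 1746 lower, became 732 and 939 with median-ratio scaling and 865 and 804 with equal totals. Same-numbered 4-month libraries did not deviate together (r = 0.06, 0.01 and −0.05, against −0.14 to 0.11 for libraries of unlike number). With 3 libraries in a group this cannot exclude a tie between them. The replicate block gave 0 members and 21 genes. The 19-month columns carry no numbers, so no block was fitted there. The call of *Gdpd5* at 19 months was lost with the TPM table, without the intensity trend, in the fit of all 12 libraries and without WT library A, with log2 differences of −0.85 to −1.11. Log2 ratios of cluster sums that moved by more than the spread were, with equal totals, 0.10 for alpha between ages in *Gde2*KO, −0.10 for beta between genotypes at 4 months, and 0.12 and 0.21 for beta and gamma between ages in *Gde2*KO, with median-ratio scaling 0.082 and 0.17 for the latter, and −0.094 for gamma at 4 months without the transcripts of constant exons. C-type shares from normalized counts were 42.1%, 40.8%, 41.2% and 38.9% of alpha (WT and *Gde2*KO at 4 months, then at 19) and 47.6%, 47.8% and 45.9% of gamma (WT at both ages and *Gde2*KO at 19 months), and without the transcripts of constant exons the gamma shares were 45.3%, 44.2%, 40.3% and 42.1%. Depth limits the 19-month values of low members, above all in the shallow libraries.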
